A study of Mus musculus with 3 samples.

Results

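This account concerns C2C12 cells, a mouse myoblast line, in growth medium with 20% fetal serum, and sets a library labelled as transfected with shKSRP (genotype label: knockdown of KSRP) beside a mock-transfected library (genotype label: control). Both carry the control label for the agent, so neither received BMP2 by its label. Of the 22709 genes named in the deposited files, 10658 entered the comparison, against 11463 that reach 1 FPKM in any of the 3 libraries of the series. A gene entered where its FPKM (fragments per kilobase, normalised to library depth) was at least 1 in either library and above 0 in both, and where its longest RefSeq transcript had at least 300 nt. The remaining library, mock-transfected cells labelled DM+BMP2, is used here for values set side by side. Its protocol gives 2% horse serum in the differentiation medium, and a BMP2 dose of 100 to 300 ng/ml. Each group is 1 library, so there is no replicate spread, no test and no p-value. The labels do not say how the hairpin was delivered, whether the transfected cells were selected or cloned, or what the mock cells received.

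KSRP, the product of Khsrp, is an RNA-binding protein that recognises AU-rich elements in mRNAs, recruits the decay machinery to them and assists the processing of some microRNA precursors. In C2C12 myoblasts it is known for promoting the decay of muscle regulatory mRNAs during proliferation. These cells divide in rich serum and leave the cell cycle to form muscle, or take an osteoblast course when given BMP2.

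Paired FPKM values below give mock first and the library labelled shKSRP second. Every ± on an FPKM is the distance from the value to the upper deposited 95% bound, combined over the transcripts of a gene, and every ± on a log2 ratio is propagated from it. They cover counting and assignment error only, and reads copied by PCR could not be told from separate molecules. Depth, estimated from the widths of these intervals, was 61.9 M fragments for mock and 68.4 M for the library labelled shKSRP. The half-width of the log2 ratio had a median of 0.0853 over all genes compared, 0.0700 for genes at 10 FPKM or more in the higher library and 0.122 below that.

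Summed over its transcripts, Khsrp mRNA was only slightly lower in the library labelled as a knockdown. It stood at 31.4 ± 0.85 and 28.4 ± 0.64 FPKM, and 27.1 ± 0.67 in the BMP2 library, which was mock-transfected. The log2 ratio to mock was −0.14 ± 0.05. In mock, 15.5 FPKM stood on the RefSeq transcript of 18 exons and 15.9 on an assembled transcript of 16 exons. That transcript ends at position 57167924 on the 5′ side of this minus-strand gene of chromosome 17, whereas the RefSeq transcript runs from 57160472 to 57170930 (mm9 build). With RefSeq transcripts alone the log2 ratio was therefore 0.83. Whether KSRP protein was lower is not measured here, and the words "higher" and "lower" compare the library labelled shKSRP with mock.

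The cells of both libraries expressed myoblast genes. Des (desmin) stood at 279.8 ± 2.9 and 185 ± 2.3 FPKM, and Myod1, the muscle determination factor, at 30.7 ± 1.2 and 34.8 ± 1.1. Of 7 myoblast markers, 6 were at 1 FPKM or more in mock, as were all 7 in the library labelled shKSRP, with summed FPKM of 460.2 and 440.7. Among markers of other cell types, Epcam, Adgre1, Rbfox3, Sox10, Lum and Thy1 were listed at 0 in both, and the 3 endothelial markers summed to 0.0606 and 0.0265. The 6 epithelial markers summed to 114 and 18.5 and the 5 neural and glial markers to 98.7 and 11.9, almost all of it on Krt14 and Tubb3, both at loci shared with another gene. The 6 fibroblast markers summed to 33.2 and 61.1, mostly on Pdgfrb, with Dcn at 12.7 and 6.88. Markers of the skeletal lineages were present: the 3 chondrocyte markers summed to 20.7 and 6.29, with Sox9 at 13.7 and 6.23, and the 5 osteoblast markers to 16.1 and 15.8, with Runx2 at 8.55 and 13.6. The part of these markers in the results was not tested.

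Differences are log2 ratios of FPKM + 1, so the change of a gene with low values comes out smaller than it is, and a gene is called higher or lower at a ratio of at least 2-fold. By this rule 1034 genes were higher, 9.70% of those compared, and 1175 were lower, 11.0% of those compared. The remaining 8449 passed in neither direction. The median log2 ratio was −0.01, the quartiles were −0.53 and 0.47, and the central 90% between −1.40 and 1.35. At 4-fold or more, 166 genes were higher and 165 lower. The interval of the log2 ratio crossed 0 for 10 of the called genes. Calls differed with level: of 1162 genes at 100 FPKM or more in the higher library, 21.5% were lower and 6.02% higher, whereas of 1731 genes at 5 to 10 FPKM, 7.16% were lower and 11.7% higher. The medians of these classes were −0.47 and 0.18. With the trend over transcript length taken out they were −0.11 and 0.05. Among 182 genes just inside the 1 FPKM limit (up to 1.25 FPKM) the median was 0.08, and among 184 just outside it (0.8 to 1 FPKM) it was 0.05.

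The libraries differed in their total. FPKM summed to 677872 over mock and 533262 over the library labelled shKSRP, 78.7% of the former. Dividing each library by its own sum moves the median log2 ratio of all genes to 0.29 and turns the split to 1807 higher and 643 lower. All counts and medians below are read with that shift in mind. The reference genes, none of which was called among 19 compared, had a median of −0.08 as deposited, 0.26 after division by the sum and −0.43 with RefSeq transcripts alone.

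**Figure D1:**
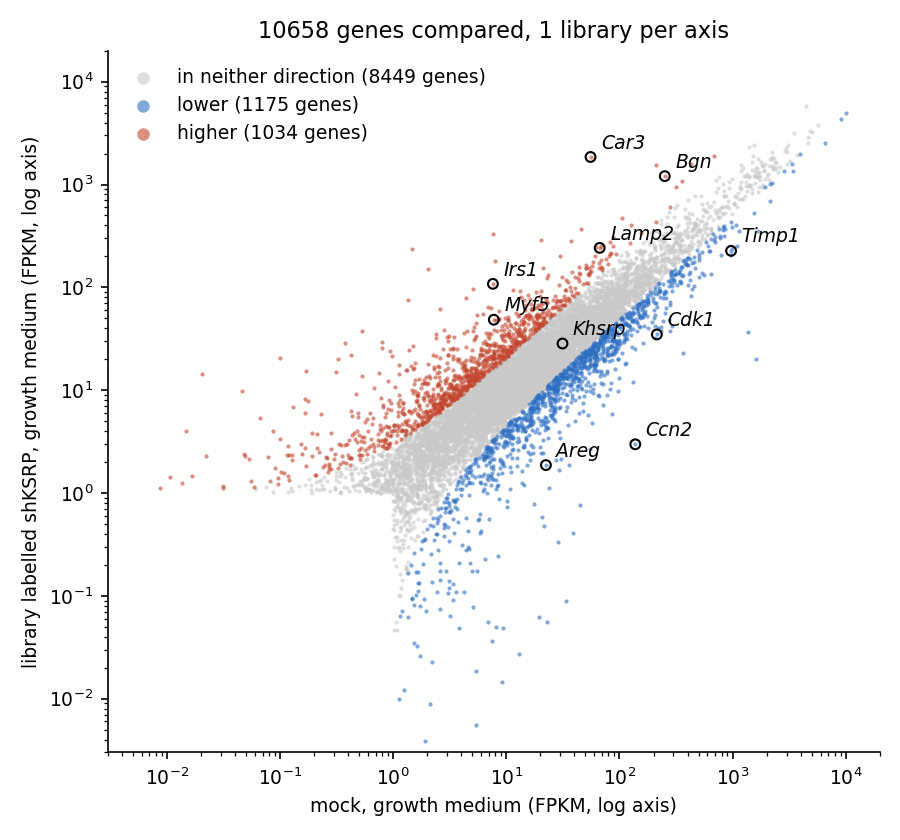
FPKM of each of the 10658 genes in mock (x axis) and in the library labelled shKSRP (y axis), both on log axes, coloured by the 2-fold rule. Khsrp lies in the uncoloured band, and Car3 and Ccn2 lie far from it on opposite sides.

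Genes of mitosis formed the most uniform group. All 77 members compared had a negative log2 ratio, 65 were lower by at least 2-fold, none was higher, and the median was −1.54 against −0.01 for all genes. For the BMP2 library over the same mock library the list median was −1.69, so these low values were not particular to the library labelled shKSRP. Cks2, a subunit of cyclin-dependent kinases, stood at 289 ± 9.0 and 41.7 ± 2.1 FPKM (log2 ratio −2.77). Cenpa, the histone variant of centromeres, stood at 113 ± 2.8 and 18.1 ± 1.2 (−2.58). Kif20b, a kinesin of the late spindle, stood at 35.4 ± 2.4 and 4.60 ± 0.26 (−2.70), with its RefSeq transcripts listed at 0 in the second library. Ube2c and Birc5 (survivin), both at shared loci, fell in the same range, from 231 ± 4.3 to 37.7 ± 1.7 and from 243.5 ± 4.3 to 47.1 ± 2.3. Ckap5, a microtubule polymerase that is also used outside mitosis, passed in neither direction at 26.4 ± 0.50 and 26.1 ± 0.60. With RefSeq transcripts alone 53 of the 65 kept their call and 2 turned direction. With the trend over transcript length taken out the list median was −1.55. Cks1b was listed at 0 in the library labelled shKSRP and was not counted.

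Of 53 genes of origin licensing and the replication fork, 38 were lower and none higher, with a median of −1.34. For the BMP2 library over mock the list median was −1.37. With RefSeq transcripts alone 28 of the 38 kept their call and 2 turned direction. Gmnn (geminin), the inhibitor of origin licensing, stood at 59.5 ± 2.1 and 11.5 ± 0.89 FPKM (log2 ratio −2.27). Tk1 (thymidine kinase) stood at 208 ± 4.2 and 42.0 ± 1.4 (−2.28, or −0.87 with RefSeq transcripts alone), and Lig1 (DNA ligase I) at 69.1 ± 2.1 and 11.8 ± 0.47 (−2.45, or −0.39). Pcna, the sliding clamp, and the helicase subunit Mcm6, both at shared loci, stood at 422 ± 4.8 and 117 ± 2.4 and at 205 ± 5.3 and 53.3 ± 1.2. Genes of DNA repair were less uniform: 10 of 28 were lower, none was higher and the median was −0.79. For the BMP2 library over mock the list median was −0.95. The median transcript length of the repair genes was 3743 nt, and without the length trend 16 of the 28 were lower. With RefSeq transcripts alone 5 of the 10 kept their call. Rad54b, a recombination helicase, stood at 10.8 ± 1.1 and 1.8 ± 0.25, and Ung, which excises uracil from DNA, at 6.89 ± 0.49 and 1.49 ± 0.26.

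The regulators that govern entry into the cycle went both ways: 4 higher and 5 lower of 36 and a median of −0.30. These shares, 11.1% and 13.9%, were near the 9.70% and 11.0% of all genes compared. With RefSeq transcripts alone 2 of the 4 higher and all 5 lower calls were kept, and 1 call turned direction. Ccnd1 (cyclin D1) stood at 146 ± 1.6 and 67.1 ± 1.0 FPKM, and Ccne1 (cyclin E1) at 28.8 ± 0.99 and 11.4 ± 0.59. Both were above −1 after division by the sum of FPKM (−0.77 and −0.94). Gas1, a membrane protein named for its expression in growth arrest, was higher at 50.2 ± 1.0 and 155 ± 1.7. Rbl2 (p130), the pocket protein of resting cells, stood at 3.10 ± 0.21 and 10.5 ± 0.37, its RefSeq transcript being listed at 0 in mock. The inhibitors Cdkn2c and Cdkn2d were lower, at 39.6 ± 1.6 and 14.6 ± 0.89 and at 46.4 ± 1.6 and 17.0 ± 0.93, and neither passed without the length trend (−0.87 and −0.92). Cdkn1a (p21) passed in neither direction at 189.5 ± 2.6 and 195 ± 2.5.

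Promoter sequences are shown here because the cell cycle lists are the largest groups that moved together and carry 2 classic elements. The cell cycle homology region (TTTGAA), often near a CCAAT box, marks promoters of mitotic genes, and the E2F element (here TTCCCGC) marks promoters of replication genes. RefSeq promoters of GRCm38.p6, from 250 bases before to 50 after the annotated start, were searched on both strands for these letters, for genes with 1 promoter in the table. The stretches below are the 150 bases before the start, 5′ to 3′ on the gene's strand, with the matched letters in capitals (ATTGG and GCGGGAA are CCAAT and TTCCCGC on the other strand). Shown are mitosis members with both elements and replication members with an E2F element in this stretch. They had the lowest ratios among the eligible members outside shared loci. Genes on 1 chromosome were not eligible, whatever their ratios. The choice was made with the values in view.
Cdk1, the mitotic kinase, chr10:69352913-69353062, minus strand: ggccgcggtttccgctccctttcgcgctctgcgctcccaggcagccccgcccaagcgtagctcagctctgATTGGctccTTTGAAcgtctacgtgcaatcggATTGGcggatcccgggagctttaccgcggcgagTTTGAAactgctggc
Cdc20, the anaphase activator, chr4:118437344-118437493, minus strand: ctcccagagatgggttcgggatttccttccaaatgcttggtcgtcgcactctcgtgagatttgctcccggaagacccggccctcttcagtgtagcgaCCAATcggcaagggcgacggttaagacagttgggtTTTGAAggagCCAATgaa
Ckap2, a spindle protein, chr8:22185820-22185969, minus strand: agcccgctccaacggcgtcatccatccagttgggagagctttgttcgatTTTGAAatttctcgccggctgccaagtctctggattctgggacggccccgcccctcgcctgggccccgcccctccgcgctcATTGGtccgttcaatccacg
Pola1, the polymerase alpha catalytic subunit, chrX:93632156-93632305, minus strand: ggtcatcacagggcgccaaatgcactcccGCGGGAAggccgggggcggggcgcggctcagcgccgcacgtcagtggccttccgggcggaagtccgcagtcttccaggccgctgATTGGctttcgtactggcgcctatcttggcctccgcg
Rpa2, a subunit of the single-strand binding complex, chr4:132768210-132768359, plus strand: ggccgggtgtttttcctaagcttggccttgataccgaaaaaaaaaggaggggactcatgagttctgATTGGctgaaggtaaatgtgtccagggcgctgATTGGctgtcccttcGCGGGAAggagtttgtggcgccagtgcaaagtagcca

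In FPKM these 5 genes fell from 214 to 34.8 (Cdk1), from 137 to 25.1 (Cdc20), from 74.7 to 19.5 (Ckap2), from 25.7 to 6.33 (Pola1) and from 43.9 to 12.9 (Rpa2). With RefSeq transcripts alone Pola1 turned, to a log2 ratio of 0.62. TTTGAA occurred in 37 of 60 mitosis promoters (61.7%), against 11.5% of the 6753 promoters of compared genes and 17.9% of all 32851 in the table. CCAAT occurred in 71.7% of the mitosis promoters, 40.4% of those of compared genes and 37.4% of all. TTCCCGC occurred in 15 of 37 replication promoters (40.5%) and in 10 of 20 DNA repair promoters, against 9.24% of those of compared genes and 4.60% of all. TTTGAA stood in 17.1% of the promoters of genes called lower and 12.6% of those called higher, and TTCCCGC in 12.8% and 4.37%. Within the lists the letters did not separate the values: mitosis genes with TTTGAA had a median log2 ratio of −1.64 (31 of 37 lower) and those without it −1.58 (20 of 23 lower), and replication genes had −1.30 with TTCCCGC and −1.56 without. A match is a string of letters in this window and not a mapped binding site.

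The EGF family list holds ligands, which drive proliferation through ERK, and their receptors. All 4 ligands compared were lower, while the receptors Egfr and Erbb2 passed in neither direction at 2.68 and 5.01 FPKM and at 8.37 and 11.7 FPKM. These receptors were named after their values were seen, as were the fibroblast and skeletal markers given above. Areg (amphiregulin) stood at 22.4 ± 1.1 and 1.87 ± 0.32 FPKM (log2 ratio −3.03), Ereg (epiregulin) at 15.3 ± 0.48 and 1.89 ± 0.16 (−2.49), and Hbegf at 11.5 ± 0.56 and 3.41 ± 0.29. The fourth, Btc (betacellulin), stood at 3.12 ± 0.26 and 0.745 ± 0.12 (−1.24). All 4 passed with RefSeq transcripts alone, after division by the sum and without the length trend, and with a pseudocount of 5 Hbegf and Btc did not (−0.97 and −0.50). In the BMP2 library these 4 ligands were below mock too, at 1.43 (Areg), 4.62 (Ereg), 8.19 (Hbegf) and 1.37 (Btc) FPKM. Among feedback inhibitors of the MAP kinase pathway 7 of 20 were lower and none higher, while the median was −0.09. Of the 7, 4 kept their call with RefSeq transcripts alone. Dusp6, the phosphatase of ERK, stood at 14.8 ± 0.59 and 3.34 ± 0.26, and Dusp4, on assembled transcripts alone, at 24.2 ± 0.57 and 5.70 ± 0.30. Spry2, another feedback inhibitor, passed in neither direction at 20.4 ± 0.98 and 22.5 ± 0.82. In the BMP2 library Dusp6, Dusp4 and Spry2 stood at 8.60, 8.20 and 12.9 FPKM, while Dusp1 (40.7 and 5.07 FPKM) stood at 69.9. Etv4 and Etv5, ETS factors induced by FGF signalling, were at 17.4 ± 0.89 and 0.781 ± 0.17 and at 4.66 ± 0.28 and 1.28 ± 0.14. Their values in the BMP2 library were 6.57 and 2.54.

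Immediate-early transcription factors were 3 higher and 8 lower of 26, and the list median was −0.54. Without the length trend 1 was higher and 6 lower, and RefSeq transcripts alone kept 1 of the 3 higher calls. Klf2, a zinc-finger factor, was the lowest at 55.2 ± 2.7 and 2.69 ± 0.30 FPKM (log2 ratio −3.93, or −2.12 with RefSeq transcripts alone). Ier2 stood at 78.0 ± 1.9 and 25.6 ± 1.0. Fosl1 (FRA1) stood at 99.0 and 27.7 ± 0.95, but its half-width in mock was 124, wider than the value, and its RefSeq transcript gave −2.71. In the other direction Fosl2 (FRA2) stood at 17.5 ± 0.53 and 44.8 ± 0.72, and passed neither without the length trend (0.91) nor without the GC trend as well (0.82). The MYC antagonists Mxd4 and Mxi1 were higher in summed FPKM, at 12.6 ± 1.1 and 52.8 ± 1.0 and at 4.55 ± 0.30 and 12.9 ± 0.67, with the RefSeq transcripts of both listed at 0 in the library labelled shKSRP.

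Irs1, the adaptor of the insulin and IGF receptors, stood at 7.61 ± 0.23 and 108 ± 1.2 FPKM, and 19.5 in the BMP2 library (log2 ratio to mock 3.67). Igf1r stood at 1.69 ± 0.11 and 5.69 ± 0.20 (0.80 without the length trend). Igfbp2, a secreted IGF-binding protein, went the other way at 456 ± 4.9 and 103 ± 2.2. The IGF list had 5 higher and 1 lower of 14, and 3 higher without the length trend. Among the FGF, PDGF, HGF and VEGF genes 4 were higher and 3 lower of 21. Pdgfc and Pdgfrb were higher, at 12.9 ± 0.72 and 54.1 ± 1.3 and at 18.9 ± 0.56 and 52.2 ± 0.88. Fgf21, a stress hormone of the FGF family, stood at 0.743 ± 0.24 and 14.7 ± 1.1. Csf1 and Vegfa passed in neither direction, at 200.5 ± 2.5 and 183 ± 2.3 and at 57.1 ± 1.4 and 54.2 ± 1.4.

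Targets of YAP and TEAD, which read out cell spreading and tension, went both ways: 6 were higher and 2 lower of 29, and the median of 0.23 was −0.00 without the length trend. RefSeq transcripts alone kept 3 of the 6 higher calls. Ankrd1 stood at 354 ± 3.7 and 159 ± 2.4 FPKM (log2 ratio −1.15, or −0.80 after division by the sum), while Ccn1 (CYR61) passed in neither direction at 204 ± 2.6 and 177 ± 2.3. Ccn2 was the lowest of the list, at 138 ± 1.9 FPKM in mock, 2.98 ± 0.27 and, in the BMP2 library, 205 (−5.13). GGAATG, the core of the TEAD element, occurred in 10 of 19 promoters of the list (52.6%), against 11.6% of those of compared genes and 14.7% of all. Among these 19, members with it had a median of 0.14 and those without it 0.64. Ccn2 was not among the 19.

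Contractile and cytoskeletal genes that answer to serum response factor were 5 higher and 1 lower of 34, and the list median was 0.06. RefSeq transcripts alone kept 3 of the 5. Vcl (vinculin), a protein of focal adhesions, stood at 53.6 ± 0.89 and 132 ± 1.2 FPKM (log2 ratio 1.28, or 0.92 without the length trend), and Cnn3 (calponin 3) at 282 ± 3.1 and 611 ± 4.3 (1.11). Flna (filamin A) was the lower member in summed FPKM, at 1663 ± 14 and 357 ± 1.7. Its RefSeq transcript was listed at 0 in mock and at 293 in the other library, so the mock value rests on assembled transcripts alone. Tubulins and microtubule proteins had 3 higher and 5 lower of 17 (median −0.60). Tuba4a stood at 79.5 ± 1.6 and 22.1 ± 0.81 and Stmn1 (stathmin), which destabilises microtubules, at 466 ± 5.6 and 153 ± 3.1. Map1b, a stabilising protein of neurites, stood at 3.36 ± 0.15 and 15.7 ± 0.32.

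Chromatin proteins of the high mobility group and related linker proteins had 7 lower and none higher of 19 and a median of −0.72. Hmga2, a chromatin protein of embryonic and proliferating mesenchymal cells, stood at 26.4 ± 0.69 and 6.45 ± 0.38 FPKM (log2 ratio −1.88). Hmgb1 stood at 284 ± 2.8 and 109 ± 1.7 (−1.37) and the histone variant gene H2az1 at 832 ± 8.0 and 313 ± 4.7 (−1.41, or −0.88 without the length trend). Without that trend 2 of the 19 were lower. For the BMP2 library over mock the list median was −0.55.

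Of 14 determination and MEF2 factors 8 were higher and 1 lower, with a median of 1.21, and 4 of the 8 kept their call with RefSeq transcripts alone. Myf5, the determination factor of early myoblasts, stood at 7.75 ± 0.50 and 48.4 ± 1.2 FPKM, and 9.09 ± 0.54 in the BMP2 library. Tcf12, the E-protein partner of these factors, stood at 12.1 ± 0.49 and 56.7 ± 1.3 (log2 ratio 2.14). Mef2a stood at 2.39 ± 0.21 and 34.8 ± 0.77 on assembled transcripts alone. Myod1 passed in neither direction. Msc (musculin), a repressor of MYOD activity, was the lower one at 2.11 ± 0.32 and 0.00895 ± 0.018.

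Genes that mark satellite cells, the resting stem cells of muscle, were 5 higher and 1 lower of 18, and the list median was 0.53. Of the 5, 3 kept their call with RefSeq transcripts alone. In all, 12 members had a positive log2 ratio and 6 a negative one. Hes1 and Cd34, named after their values were seen, fell just short of being called lower. Hes1 stood at 29.3 and 14.2 FPKM (−0.99) and Cd34 at 9.93 and 4.67 (−0.95). Cxcr4, a chemokine receptor of muscle precursors, stood at 11.5 ± 0.80 and 93.9 ± 2.4 FPKM (log2 ratio 2.92), and Notch3 at 3.36 ± 0.16 and 25.0 ± 0.78 (2.58). Pax7, the defining factor of satellite cells, was at 0.118 ± 0.042, 2.90 ± 0.20 and, in the BMP2 library, 0.463. The Pax7 value in the library labelled shKSRP stands on assembled transcripts, its RefSeq transcript being listed at 0. Fgfr4 stood at 0.372 ± 0.11 and 2.93 ± 0.23. Sdc4 (syndecan 4), a heparan sulfate proteoglycan of these cells, was the lower one at 71.5 ± 1.7 and 23.2 ± 0.75 (−1.59, or −0.43 with RefSeq transcripts alone). At such levels Pax7 and Fgfr4 did not pass with a pseudocount of 5 (0.63 and 0.56).

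Genes of myoblast adhesion and fusion were 9 higher and none lower of 31, and the list median was 0.33. Without the length trend 7 were higher and 3 lower with a median of 0.13, and 5 of the 9 passed with RefSeq transcripts alone. Cdh11, a cadherin of mesenchymal cells, stood at 0.424 ± 0.080 and 22.2 ± 0.66 FPKM (log2 ratio 4.03), and Cdon, a receptor that promotes myogenic differentiation, at 8.96 ± 0.28 and 38.6 ± 0.72. Neo1, a partner of Cdon, stood at 6.63 ± 0.26 and 28.3 ± 0.59 (1.94, or 0.30 with RefSeq transcripts alone). The tetraspanin Cd81, at a shared locus, passed in neither direction at 333 ± 3.9 and 326 ± 3.7.

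At the neuromuscular junction 8 of 18 genes were higher and 2 lower, with a median of 0.52. The acetylcholine receptor subunit Chrnd stood at 0.914 ± 0.30 and 4.38 ± 0.57 FPKM, and the fetal subunit Chrng, at a shared locus, at 2.49 ± 0.37 and 11.5 ± 0.60. Lrp4, the agrin receptor, stood at 8.18 ± 0.38 and 28.4 ± 0.45. Utrn (utrophin) stood at 6.01 ± 0.17 and 26.0 ± 0.77 (log2 ratio 1.94, or 0.48 with RefSeq transcripts alone). The 2 lower members were Etv4 and Etv5, given above, which drive genes of the synapse.

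Sarcomere and muscle energy genes went both ways: 10 higher and 4 lower of 36 and a median of 0.37. Pvalb (parvalbumin), a calcium buffer of fast fibres, stood at 0.168 ± 0.12 and 15.5 ± 1.2 FPKM (log2 ratio 3.82), and Cox6a2, the muscle form of a cytochrome oxidase subunit, at 0.435 ± 0.23 and 5.58 ± 0.80. Tnnc1, the slow troponin C, was lower at 39.2 ± 2.1 and 18.1 ± 1.4, a difference that did not pass without the length trend (−0.51). Eno3, the muscle enolase, passed in neither direction at 568.5 ± 5.2 and 569.1 ± 5.0.

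**Figure D2:**
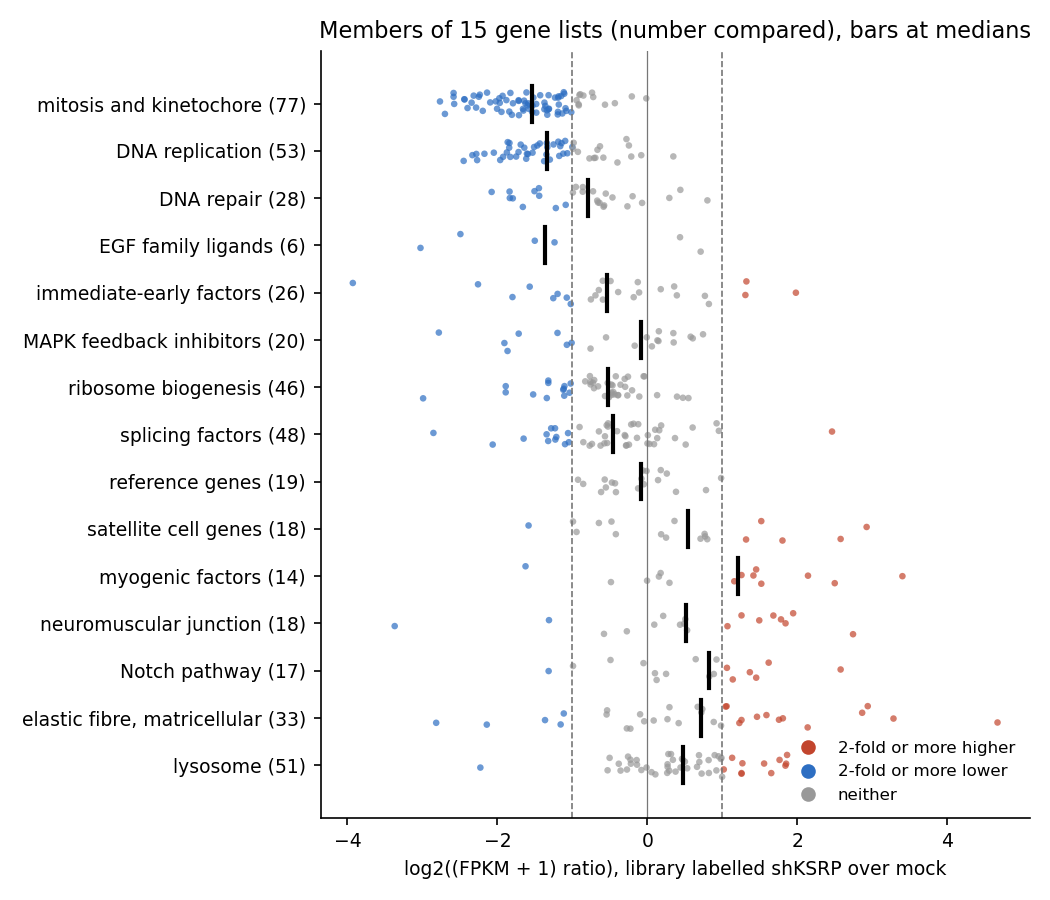
Log2 ratios of FPKM + 1 (library labelled shKSRP over mock) for the members compared in 15 gene lists, each point a gene, black bars at the list medians and dashed lines at 2-fold. All mitosis members lie below 0, with a median of −1.54, while the lysosome median lies at 0.47.

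In the Notch pathway, by which neighbouring cells hold each other undifferentiated, 6 of 17 genes were higher and 1 lower, with a median of 0.82. That median was 0.37 without the length trend and 0.03 with RefSeq transcripts alone. The ligand Dll1 stood at 0.875 ± 0.15 and 3.83 ± 0.26 FPKM, and Hes6, a factor of the HES family, at 40.6 ± 1.9 and 127 ± 2.6 (log2 ratio 1.62). Hes1, of the same family and given above, had a log2 ratio of −0.99. Lfng, the glycosyltransferase that tunes Notch receptors, was lower at 35.0 ± 1.0 and 13.4 ± 0.59 and stood at 99.0 in the BMP2 library. Wnt ligands, receptors and nuclear factors had 9 higher and none lower of 25, and the list median was 0.58. RefSeq transcripts alone kept 5 of the 9. Wnt10a stood at 0.975 ± 0.18 and 21.4 ± 0.81 (3.50) and at 0.883 in the BMP2 library. The nuclear factors Tcf7 and Lef1 stood at 3.80 ± 0.38 and 20.2 ± 0.90 and at 1.14 ± 0.15 and 7.96 ± 0.53, the RefSeq transcripts of both being listed at 0 in mock. Secreted and membrane antagonists of Wnt had 5 higher and 2 lower of 13: Dkk3 stood at 0.857 ± 0.13 and 5.94 ± 0.40, while Dkk2 stood at 3.63 ± 0.31 and 0.109 ± 0.041.

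Ligands and antagonists of the BMP and TGF-beta family were 6 higher and 1 lower of 18, and the list median was 0.66. For the BMP2 library over mock it was 1.21. Inhbb, the activin beta B chain, stood at 7.08 ± 0.32 and 32.4 ± 0.66 FPKM (log2 ratio 2.05). Gdf15, a stress-induced member, was lower at 162 ± 3.3 and 28.6 ± 1.3. Of the receptors and SMADs 2 of 20 were higher and 2 lower, 10% each against 9.70% and 11.0% of all genes. Without the length trend 1 was higher and none lower. Tgfbr2 stood at 14.2 ± 0.44 and 75.1 ± 1.1 (2.32). Id1, a direct BMP target, stood at 289 ± 4.9 and 104 ± 2.8 (−1.47, or −0.93 without the length trend). Osteoblast factors and mineralization genes were 1 higher and 6 lower of 21: the factor genes Vdr and Twist2 stood at 16.4 ± 0.49 and 4.71 ± 0.25 and at 26.5 ± 1.4 and 8.22 ± 0.63, and Alpl and Sp7 were under 1 FPKM in both libraries.

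Of 33 elastic fibre and matricellular proteins 13 were higher and 5 lower (median 0.72, or 0.30 without the length trend), and of 13 other collagens 6 were higher and 1 lower (median 0.61, or 0.22). Mfap5, a protein of elastic microfibrils, stood at 0.527 ± 0.16 and 13.8 ± 1.2 FPKM (log2 ratio 3.28). The nidogens, which link laminin to collagen IV in basement membranes, went opposite ways: Nid2 stood at 7.39 ± 0.31 and 63.3 ± 0.87 (2.94) and Nid1 at 105 ± 1.2 and 23.0 ± 0.51 (−2.14). Col6a1, a chain of the microfibrillar collagen VI, stood at 43.7 ± 1.1 and 158 ± 1.5, and Col5a2, which sets fibril diameter, at 126 ± 2.0 and 407.5 ± 3.9. Col4a1 passed in neither direction at 36.6 ± 0.63 and 38.8 ± 0.58.

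Col2a1, the collagen of cartilage, stood at 6.95 ± 0.36 and 0.0556 ± 0.025 FPKM, and 68.8 ± 1.2 in the BMP2 library. Of 21 genes of collagen processing 5 were higher and 3 lower. Loxl2, a lysyl oxidase that cross-links collagen, stood at 6.54 ± 0.35 and 0.230 ± 0.051, and Pcolce2, an enhancer of procollagen cleavage, at 72.2 ± 1.6 and 11.6 ± 0.61. Proteases and their inhibitors were 6 higher and 6 lower of 28. The metalloprotease inhibitors Timp1 and Timp3 were both lower, at 969.8 ± 11 and 227 ± 4.9 and at 68.3 ± 0.96 and 14.7 ± 0.42, and both stood higher in the BMP2 library (1034 and 118). Mmp15 stood at 0.655 ± 0.11 and 4.69 ± 0.29. Among 10 integrins 2 were higher and 2 lower, Itga11, a collagen receptor, at 0.0478 ± 0.025 and 2.39 ± 0.17 and Itgb7 at 8.39 ± 0.34 and 1.19 ± 0.16 (RefSeq transcript listed at 0 in mock).

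The complement list had 6 higher and 1 lower of 9, and the list median was 1.73, the highest of all 59 lists. For the BMP2 library over mock it was 1.39. The C1 proteases C1s1 and C1ra, both at shared loci, stood at 5.18 ± 0.39 and 41.2 ± 1.1 FPKM and at 6.93 ± 0.52 and 27.7 ± 0.77. Colec12, a scavenger receptor of the collectin family, stood at 10.6 ± 0.55 and 37.4 ± 0.81. Cd55, which protects cells from complement and shares its locus, was lower at 28.9 ± 0.95 and 1.66 ± 0.22. Chemokines and cytokines were 4 higher and 5 lower of 19, with Ccl8 at 7.0 ± 1.1 and 24.0 ± 2.0 and Cxcl1 at 19.2 ± 1.2 and 6.10 ± 0.66 (log2 ratio −1.51, or −0.98 without the length trend). Interferon genes were 3 higher and 1 lower of 23, among them Isg15 at 1.97 ± 0.45 and 5.37 ± 0.71.

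KSRP belongs to the binders of AU-rich elements, of which 3 were higher and 3 lower of 18, the median being −0.04. Without the length trend 1 was higher and 4 lower. With RefSeq transcripts alone 1 of the 3 higher and 2 of the 3 lower calls were kept, and 1 call turned direction. Zfp36l1, a decay-promoting zinc-finger protein, stood at 10.2 ± 0.47 and 41.2 ± 0.90 FPKM, and its relative Zfp36l2, at a shared locus, at 94.0 ± 1.3 and 44.7 ± 0.86 (log2 ratio −1.06, or −0.72 after division by the sum). Fubp1, which has the same type of KH domains as KSRP, stood at 18.6 ± 0.70 and 49.3 ± 1.3 (1.36, or 0.57 with RefSeq transcripts alone). Hnrnpa1, at a shared locus, stood at 282 ± 3.9 and 115 ± 2.5. Ptbp1, a splicing repressor, passed in neither direction at 79.6 ± 1.7 and 81.2 ± 1.5. Of 48 genes of mRNA decay and microRNA processing 5 were higher and 6 lower, of which 1 and 2 kept their call with RefSeq transcripts alone. These shares, 10.4% and 12.5%, were near the 9.70% and 11.0% of all genes compared. Without the length trend 2 were higher. Exosc2, Exosc3 and Exosc8, subunits of the RNA exosome, were lower, Exosc2 at 38.3 ± 1.3 and 12.2 ± 0.68. With RefSeq transcripts alone Exosc3 and Exosc8 did not pass (−0.82 and −0.75). Tarbp2, a partner of Dicer, stood at 57.5 ± 1.5 and 21.3 ± 0.87, while Drosha and the exonuclease Xrn2 passed in neither direction at 29.1 ± 1.8 and 32.5 ± 1.2 and at 41.3 ± 0.89 and 41.9 ± 0.98.

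Splicing factors were 1 higher and 12 lower of 48. The list median was −0.46, or −0.48 without the length trend and −0.13 after division by the sum. For the BMP2 library over mock it was −0.43. Snrpf, a core protein of spliceosomal snRNPs, stood at 280.0 ± 11 and 37.9 ± 1.8 FPKM (log2 ratio −2.85), and Srsf7, an SR protein, at 144 ± 3.7 and 45.2 ± 1.3 (−1.65, or −0.97 with RefSeq transcripts alone). The exception was Mbnl1 (muscleblind), a factor that drives muscle splice choices, at 23.2 ± 0.65, 132 ± 1.6 and, in the BMP2 library, 143 (2.46, or 0.63 with RefSeq transcripts alone). Hnrnpk passed in neither direction at 343 ± 3.8 and 315 ± 3.5.

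Ribosome assembly genes were 13 lower and none higher of 46, with a median of −0.52. Without the length trend the median was −0.51 but 6 were lower, and 5 of the 13 kept their call with RefSeq transcripts alone. For the BMP2 library over mock the list median was −0.79. Nhp2, a protein of the box H/ACA RNPs, stood at 205.5 ± 29 and 70.8 ± 2.2 FPKM. Utp20, a factor of small-subunit assembly, stood at 53.1 ± 2.4 and 5.80 ± 0.19 (log2 ratio −2.99, or −0.11 with RefSeq transcripts alone). Pes1, a factor of large-subunit assembly, passed in neither direction at 60.0 ± 1.5 and 58.3 ± 1.5. The ribosomal proteins themselves, whose transcripts are short, had medians of −0.43 (large subunit, 44 genes) and −0.56 (small subunit, 32 genes), which were 0.08 and −0.09 without the length trend. Genes of tRNA charging and the amino acid response were 4 higher and none lower of 41, 9.76% and 0% against 9.70% and 11.0% of all genes. The list median was 0.15, against −0.96 for the same list in the BMP2 library over the same mock library. Psat1, an enzyme of serine synthesis in this list, stood at 143.5 ± 2.3, 146.5 ± 2.1 and, in the BMP2 library, 17.4.

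Of 51 lysosomal genes 11 were higher and 1 lower, 38 had a positive log2 ratio, and the median of 0.47 was 0.52 without the length trend. Lamp2, a major membrane protein of lysosomes, stood at 66.9 ± 1.6 and 242 ± 2.9 FPKM (log2 ratio 1.84). Naglu and Sgsh, enzymes that break down heparan sulfate, stood at 6.13 ± 0.46 and 24.7 ± 0.77 and at 1.11 ± 0.16 and 6.16 ± 0.35. Ctsh, a cysteine cathepsin, was the lower one at 12.3 ± 0.72 and 1.85 ± 0.27, and the aspartic cathepsin Ctsd, at a shared locus, passed in neither direction at 590 ± 5.9 and 535 ± 4.9. The proteasome had 11 lower and none higher of 43, with a median of −0.68 that was −0.23 without the length trend, where 3 were lower, and 5 of the 11 kept their call with RefSeq transcripts alone. Pomp, the assembly chaperone, stood at 333 ± 6.0 and 139 ± 3.7 (−1.25, or −0.69).

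In the endoplasmic reticulum 4 of 31 genes were higher and 1 lower, 12.9% and 3.23% against 9.70% and 11.0% of all genes (median 0.29). With RefSeq transcripts alone 2 of the 4 higher calls were kept, the lower call was not, and 2 calls turned direction. Sec61a1, the channel subunit, stood at 42.9 ± 1.1 and 124.5 ± 1.5 FPKM. In the cytosol 1 of 27 was higher and 5 lower (median −0.46). With RefSeq transcripts alone the higher call turned direction and all 5 lower calls were kept. Hspb1, a small heat shock protein that binds actin, stood at 969.9 ± 9.0, 206 ± 3.9 and, in the BMP2 library, 929 (log2 ratio −2.23), and Cct8, a chaperonin subunit for actin and tubulin, at 648 ± 16 and 134 ± 2.4 (−2.26). Hsp90ab1 passed in neither direction at 1324 ± 5.9 and 1214 ± 6.1.

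Genes of the citrate cycle and fatty acid oxidation were 3 higher and none lower of 34, 8.82% and 0% against 9.70% and 11.0% of all genes. Of the 34, 27 lay above 0, and the median was 0.22. Pcx (pyruvate carboxylase) stood at 2.54 ± 0.24 and 16.7 ± 0.48 FPKM, and Pdha1, of the pyruvate dehydrogenase complex, at 50.3 ± 1.4 and 166 ± 2.2. Complex I had 2 higher and 4 lower of 37, and the list median was −0.49, or 0.07 without the length trend, where none was lower. With RefSeq transcripts alone both higher calls turned direction and 3 of the 4 lower calls were kept. Glycolysis had 3 higher and 3 lower of 28, 10.7% each against 9.70% and 11.0% of all genes, and none lower without the length trend. The pyruvate dehydrogenase kinases Pdk2 and Pdk4, which restrain glucose oxidation, were higher at 3.29 ± 0.31 and 11.0 ± 0.54 and at 10.6 ± 0.44 and 26.9 ± 0.78, while Ldha (lactate dehydrogenase) was lower at 668 ± 5.3 and 332 ± 3.6 (log2 ratio −1.01, or −0.76 without the length trend).

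Of 27 nucleotide synthesis genes 6 were lower, 3 of them also with RefSeq transcripts alone, and 1 higher, with Tyms (thymidylate synthase) at 79.7 ± 2.5 and 23.5 ± 1.3 FPKM. Glutathione and antioxidant genes were 2 higher and 9 lower of 41, a count that fell to 3 lower without the length trend. With RefSeq transcripts alone 1 of the 2 higher and 6 of the 9 lower calls were kept, and 2 calls turned direction. Tkt (transketolase) stood at 51.2 ± 1.6 and 16.1 ± 0.75 and Nqo1, a quinone reductase, at 180.4 ± 2.8 and 73.7 ± 1.7, whereas G6pdx, which opens the pentose phosphate pathway, was higher at 43.5 ± 1.0 and 114 ± 1.6. In lipid mediators, 6 of 24 genes were higher and 3 lower. Ptgs1 (cyclooxygenase 1) stood at 209.7 ± 2.2, 69.7 ± 1.2 and, in the BMP2 library, 203 (log2 ratio −1.58). Lpar4, a receptor for lysophosphatidate, stood at 0.493 ± 0.086 and 5.43 ± 0.30. Among p53 targets, 2 of 31 were higher and 5 lower, with Gadd45a at 37.8 ± 2.4 and 140 ± 4.2 and Pmaip1 (NOXA) at 6.93 ± 0.41 and 1.35 ± 0.17.

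**Figure D3:**
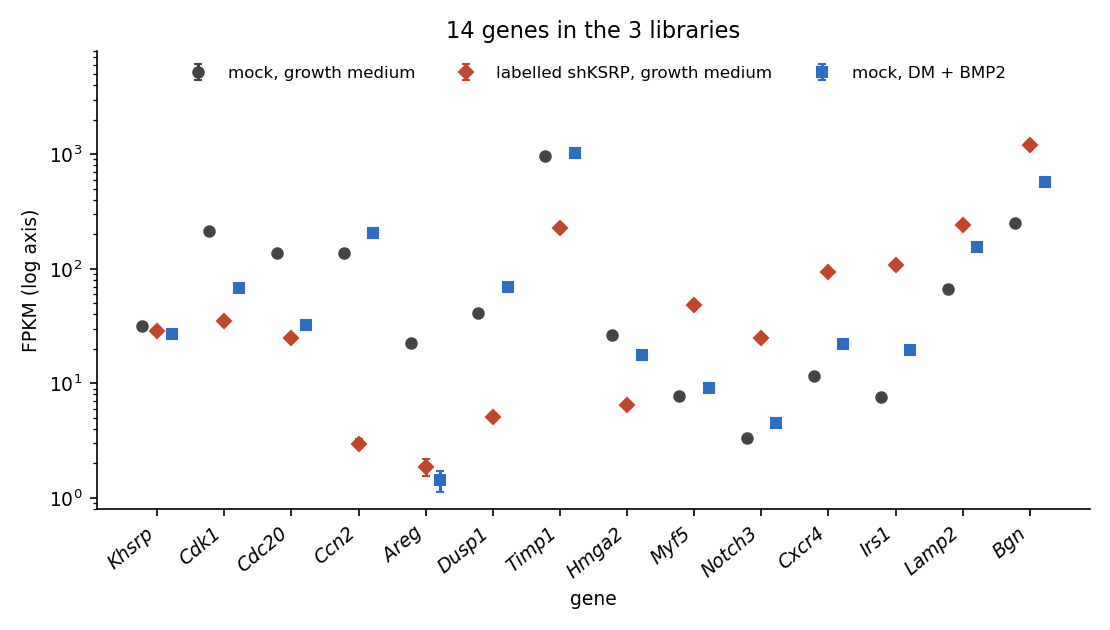
FPKM of 14 genes on a log axis in mock (grey circles), the library labelled shKSRP (red diamonds) and the BMP2 library (blue squares), with bars for the half-width of the deposited interval. Ccn2, Dusp1 and Timp1 are low in the library labelled shKSRP alone, at 2.98, 5.07 and 227 FPKM, and Myf5, Irs1 and Cxcr4 are high there, at 48.4, 108 and 93.9.

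Of the compared genes 5254 gained and 5404 lost, but the gains summed to 64986 FPKM and the losses to −205986. Genes with a longest transcript under 1500 nt went from 381170 FPKM in mock to 252331 in the library labelled shKSRP, and longer genes from 288352 to 276190. With each gene's FPKM multiplied by its length, the total in the library labelled shKSRP was 92.7% of mock. The 76 ribosomal protein genes went from 138082 to 95288, which is 29.6% of the difference in FPKM over all genes. The largest single loss was S100a4, a calcium-binding protein of motile mesenchymal cells, from 10157 ± 43 to 4964 ± 29 and at 9935 in the BMP2 library. Lgals1 (galectin 1) followed, from 9007 ± 29 to 4294 ± 19. Neither passed without the length trend (−0.46 and −0.52). Vim (vimentin), Fth1 (ferritin heavy chain) and Ppia (cyclophilin A) changed by −1843, −1806 and −1741 FPKM with log2 ratios of −0.57, −0.70 and −0.62. Of the 12 largest losses 6 were ribosomal proteins, led by Rpl41 from 6539 ± 38 to 2554 ± 23.

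The 12 largest gains summed to 11782 FPKM and the 12 largest losses to −30521. Behind Car3, which gained 1798, came Eef1a1, the elongation factor that delivers tRNAs, from 4432 ± 15 to 5771 ± 14 FPKM. Its log2 ratio was 0.38, and the elongation factors Eef1b2 (0.63, or −0.93 with RefSeq transcripts alone) and Eef2 (0.63) were also among these 12. Sparc, a collagen-binding matricellular protein, went from 691 ± 4.4 to 1904 ± 8.8 and stood at 1857 in the BMP2 library (1.46, or 0.27 with RefSeq transcripts alone), and Acta2 (smooth muscle actin) from 1404 ± 8.6 to 2338 ± 9.0 (0.74). Serpinf1 (PEDF) went from 315 ± 3.8 to 946, with a half-width of 1259 that exceeds the value. Mrpl13, a mitochondrial ribosomal protein, went from 357 ± 5.9 to 1081 ± 9.9, and Rpl28 from 1549.8 ± 17 to 2435 ± 40, although Rpl28 had a log2 ratio of −1.33 with RefSeq transcripts alone.

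The median ratio was flat over the shortest transcripts and rose with length above them. It was −0.55 in 205 genes of 300 to 599 nt, −0.56 in 594 of 600 to 999 nt and −0.47 in 1041 of 1000 to 1499 nt. It was −0.06 in 2470 genes of 2000 to 2999 nt and reached 0.32 in 1974 of 4000 to 5999 nt and 0.46 in 1121 of 6000 nt or more. The share of genes called lower went from 23.9% in the shortest class to 4.91% in the longest, and the share called higher from 4.39% to 21.7%. Spearman's correlation across genes, which are not independent replicates, was 0.396, and it was 0.430 over genes at 10 FPKM or more, 0.3945 over genes with 1 RefSeq transcript and 0.3995 with RefSeq transcripts alone. The BMP2 library set against the same mock library gave medians from −0.52 to 0.27 and a correlation of 0.285. The correlation with the GC percent of the longest transcript was −0.0478. RNA fragmentation and 3′ bias were not measured here, and their part was not tested.

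**Figure D4:**
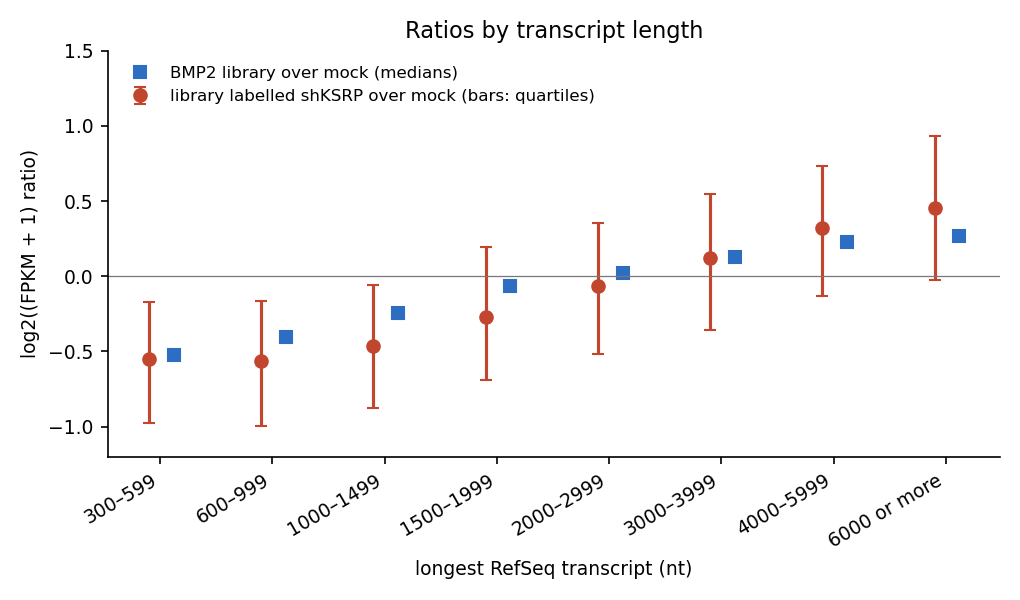
Median log2 ratio of FPKM + 1 (y axis) in 8 classes of the longest RefSeq transcript (x axis), for the library labelled shKSRP over mock with bars from the lower to the upper quartile, and for the BMP2 library over mock. From the shortest to the longest class the medians go from −0.55 to 0.46 and from −0.52 to 0.27, and both series share the mock library.

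With the length trend taken out, the median ratio still differed between chromosomes. It was lowest on chromosome 5 (−0.28 over 679 genes), chromosome 14 (−0.22 over 361) and chromosome 10 (−0.21 over 543), and highest on chromosome 11 (0.23 over 867), chromosome 1 (0.22 over 622) and chromosome 18 (0.17 over 266). In linear terms the median gene of chromosome 5 stood at 82.3% of mock and that of chromosome 11 at 117%. Of the genes of chromosome 5, 31.1% lay above 0, and of those of chromosome 11, 62.9%. Calls followed: 16.5% of the genes of chromosome 5 were lower and 5.30% higher, and 7.84% and 14.9% on chromosome 11. Over all 20 chromosomes the medians spanned 0.511, with an SD of 0.156. For the BMP2 library over the same mock library they lay between −0.08 and 0.04, with a span of 0.122 and an SD of 0.0343, and were −0.01 on chromosome 5 and 0.00 on chromosome 11.

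The shift ran along whole chromosomes. In windows of 20 Mb with at least 20 genes (mm9 positions), the median was below 0 in all 8 windows of chromosome 5, all 7 of chromosome 10 and all 4 of chromosome 16, and above 0 in all 7 windows of chromosome 11, all 7 of chromosome 9, all 8 of chromosome 7 and all 5 of chromosome 18. The windows of chromosome 5 ranged from −0.49 to −0.16 and those of chromosome 11 from 0.13 to 0.29. Other chromosomes held windows on both sides, such as chromosome 14, from −0.34 to 0.31, and chromosome 13, from −0.09 to 0.41. Over genes called in neither direction the medians were −0.21 on chromosome 5 and 0.17 on chromosome 11, and without the cell cycle lists they were −0.27 and 0.24. With RefSeq transcripts alone the span over chromosomes was 0.552. DNA copy number was not measured in these files, and its part in these medians was not tested. Taking the chromosome medians out as well left 798 genes higher and 951 lower, and the mitosis median at −1.59 and the lysosome median at 0.58.

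**Figure D5:**
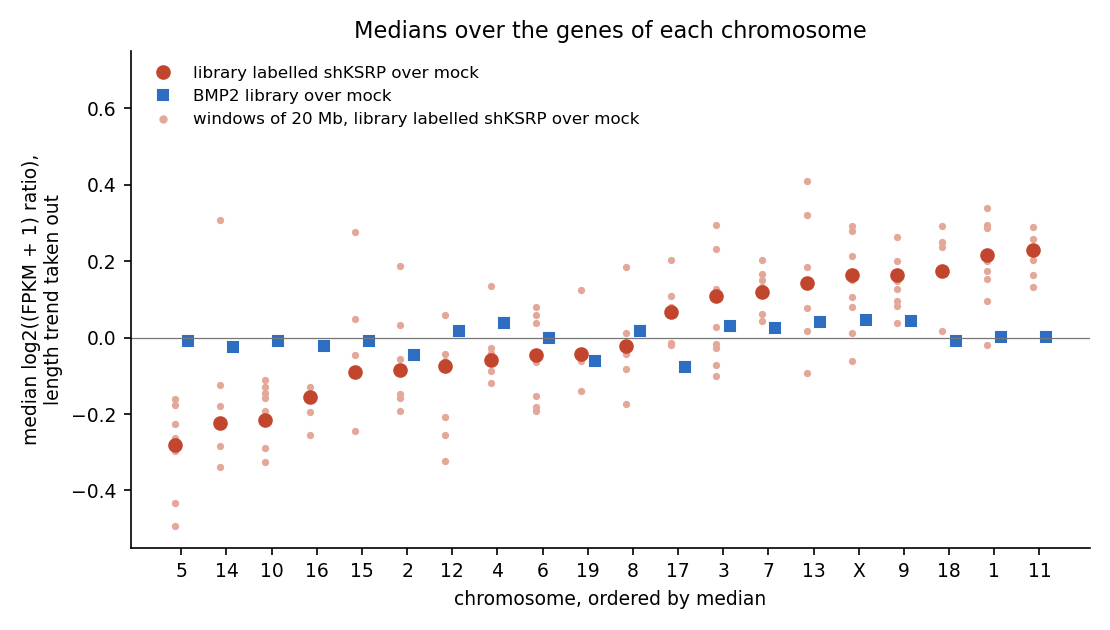
Median log2 ratio of FPKM + 1 with the length trend taken out (y axis) over the genes of each chromosome (x axis, ordered by the median for the library labelled shKSRP over mock), with small points for its 20 Mb windows and squares for the BMP2 library over mock. Circles run from −0.28 on chromosome 5 to 0.23 on chromosome 11, while squares stay between −0.08 and 0.04.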

How the data were processed

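Poly(A) RNA of 3 C2C12 samples was sequenced, 1 library a group. The deposited files list transcripts with an FPKM, its 95% bounds and a score per transcript that the authors' assembler wrote. The score was not used. Cufflinks 1.3.0, TopHat 1.4.1, Bowtie 0.12.7 and CASAVA 1.8 are listed, with genome build mm9, per the submitters' processing notes, which give no roles. Whole reads could not be recovered from the deposited FPKM, so no count test was run. Depth was estimated from the interval widths of long transcripts.

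The FPKM of a gene is the sum over its RefSeq transcripts and the assembled transcripts given to its locus. A gene is at a shared locus where its deposited locus also holds another gene, and assembled transcripts there go to the gene with the larger exon overlap. Ratios are log2 of FPKM + 1 and are called at 2-fold. The length trend joins the median ratios of 20 length classes. The members and lists were chosen with earlier results of these data known. In each list, up to 4 called genes per direction outside shared loci with the largest ratios could be named, and up to 2 abundant genes with ratios under 0.2, plus the 12 largest gains and losses in FPKM. Genes at shared loci carry that remark. Called members whose direction turned with RefSeq transcripts alone were left unnamed after their values were seen, except where stated. Of the listed symbols, 6 matched no gene. Scripts (Python 3.11.15, pandas 2.3.3, numpy 2.4.6) were checked on simulated data. Some genes that the rule allows are not reported here.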

Additional observations from a re-analysis of the deposited data

Results flagged for a closer look

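The comparison left out 539 genes listed at 0 in 1 growth medium library, 230 of them in mock and the other 309 in the library labelled shKSRP. The 4 most abundant each way are given here, since they carry signal outside the comparison. Listed at 0 in mock were AI506816 at 118 FPKM in the library labelled shKSRP, Tmem234 at 88.1, Ift20 at 58.8 and Ddit3 at 42.0. Listed at 0 in the library labelled shKSRP were Spsb2 at 382 FPKM in mock, Cks1b at 217, Fam166a at 213 and Bud31 at 181. No fold is given, since Bud31 and Cks1b are used by every dividing cell and an exact 0 can be a failed estimate. In the BMP2 library Tmem234 stood at 44.3, Ift20 at 78.7 and Cks1b at 81.4, AI506816 at 0.672, and the other 4 were listed at 0.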

How the results depend on the processing

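All 3 libraries stand alone, so no replicate could be left out. No paired analysis was possible because each group holds 1 library, whose number only names it. With a pseudocount of 5 there were 466 genes higher and 723 lower, with division by the sum of FPKM 1807 and 643, by a 1.5-fold rule 2231 and 2430, and by a 4-fold rule 166 and 165. The Khsrp log2 ratio was 0.83 with RefSeq transcripts alone or the most abundant one, 0.20 after division by the sum, −0.35 without the length trend, −0.42 without the chromosome medians as well and −0.35 without the length and GC trends. The last 2 were chosen after seeing the data. Of 8 muscle determination factors called higher, 4 passed with RefSeq transcripts alone, or the most abundant one, and 3 at 4-fold. Ribosome biogenesis genes called lower went from 13 to 8 with the pseudocount of 5, 5 after division by the sum, 6 without the length trend, 8 without the chromosome medians as well, 7 without the length and GC trends, 21 at 1.5-fold and 1 at 4-fold. Lysosome genes called higher went from 11 to 7, 21 after division by the sum, 23 at 1.5-fold and 0 at 4-fold. At 4-fold 18 mitosis genes, 6 replication genes and 5 elastic fibre and matricellular genes remained past the rule. Pola1 turned to 0.62 with RefSeq transcripts alone or the most abundant one. The cause of these changes was not tested, beyond the stricter or looser rule itself. Depth limits the interval of each gene, and the single library per group limits everything else.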
